A study of Mus musculus with 8 samples.

Results

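The 91 genes described here encode, by the prefix of their symbols, the subunits of the mitochondrial respiratory chain and ATP synthase: 44 of complex I, 4 of complex II, 9 of complex III, 17 of complex IV and 17 of complex V. They were chosen by symbol among probe sets with a single annotated gene. The choice by symbol used no measured values, but it was made with earlier results of these data known. Where a gene had several probe sets the brightest, by its mean over all 8 arrays, stands for it. The members are 91 of 18193 genes, and 180 of 45037 tested probe sets belong to them. The prefixes also take in 8 assembly factors of complex I (Ndufaf1 to Ndufaf8) and Cox7a2l, a factor that joins complexes into supercomplexes, which are not subunits in the strict sense. Subunit genes without such a probe set were not analysed here. Each gene was assigned to a complex by its symbol alone, as with Ndufa4 under complex I, and this was not checked otherwise.

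Myeloid cells were isolated by FACS for Cd11b, an integrin subunit of granulocytes and monocytes, from the bone marrow of 8 weeks old mice of mixed FVB and C57BL6 descent. The 4 control samples had the genotype E2F1-/-2+/+3f/f, so E2f1 was null, E2f2 intact and E2f3 floxed without a Cre in the genotype. The 4 experimental samples were Mxcre;E2F1-/-2-/-3f/f, which adds loss of E2f2 and the Mx-Cre transgene, whose promoter answers to interferon in many cell types. All mice had been given 5 doses of 250 µg of pIpC, which mimics viral RNA and so raises interferon, and were killed 24 h after the last, and 2.5 µg of total RNA per sample was labelled for an Affymetrix mouse array. Every experimental sample and no control carried Cre, so Cre and the E2f genotype cannot be told apart. The labels do not say that each sample came from its own animal, so each p-value here reflects only how these samples vary, and that variation may be technical. At the brightest probe set of E2f2 the level was 9.85 ± 0.28 in the control group and 9.31 ± 0.21 in the experimental group (SD, n = 4 each), a log2 difference of -0.55 ± 0.16 (SE) that did not pass in limma (adjusted p = 0.107); E2f1 differed by 0.58 (adjusted p = 0.236) and E2f3 by 0.29 (adjusted p = 0.201). Whether these probe sets lie in the deleted parts of the genes was not analysed here.

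The respiratory chain passes electrons from NADH through complex I, or from succinate through complex II, to coenzyme Q, then through complex III and cytochrome c to complex IV, which reduces oxygen. Complexes I, III and IV pump protons across the inner mitochondrial membrane, and complex V, the ATP synthase, makes ATP from the gradient. Most subunits are encoded in the nucleus and the remainder in mitochondrial DNA. Mature neutrophils, the main granulocytes of marrow, depend largely on glycolysis and hold few mitochondria, while their dividing precursors and monocytes hold more.

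None of the 91 genes passed the threshold of adjusted p 0.05 in the comparison of experimental with control samples (limma, group as the only term, adjusted over all probe sets), against 3.47% of all genes, and none of their 180 probe sets did. At an unadjusted p under 0.05 there were 16 members, 11 with higher and 5 with lower means in the experimental samples, or 17.6% of members against 18.9% of all genes. The experimental mean was above the control mean for 62 members, or 68.1% against 52.9% of all genes, with a median log2 difference of 0.07 over members and 0.01 over all genes, and differences ran from -0.76 (Ndufs5) to 0.54 (Atp5g1). The groups of arrays did not overlap for 5 members, 5.49% against 12.4% of all genes. The shares past the threshold, at an unadjusted p under 0.05 and without overlap thus lay near or below those of all genes, while the share above 0 was higher. The 95% intervals of the differences show what size of change the 8 arrays allow: for 88 of 91 members the interval lay within 2-fold in both directions, and for 72 it lay within 1.5-fold. The exceptions to the wider limit were Ndufs5 (-1.15 to -0.38), Atp5g1 (-0.03 to 1.11) and the assembly factor gene Ndufaf6 (-0.30 to 1.01), each on the log2 scale. A mean level of at least 6 was reached by 83 of the 91 members. For dim probe sets, such as that of Ndufb4 (3.24 in controls), a narrow interval need not limit a change in the gene.

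**Figure D1:**
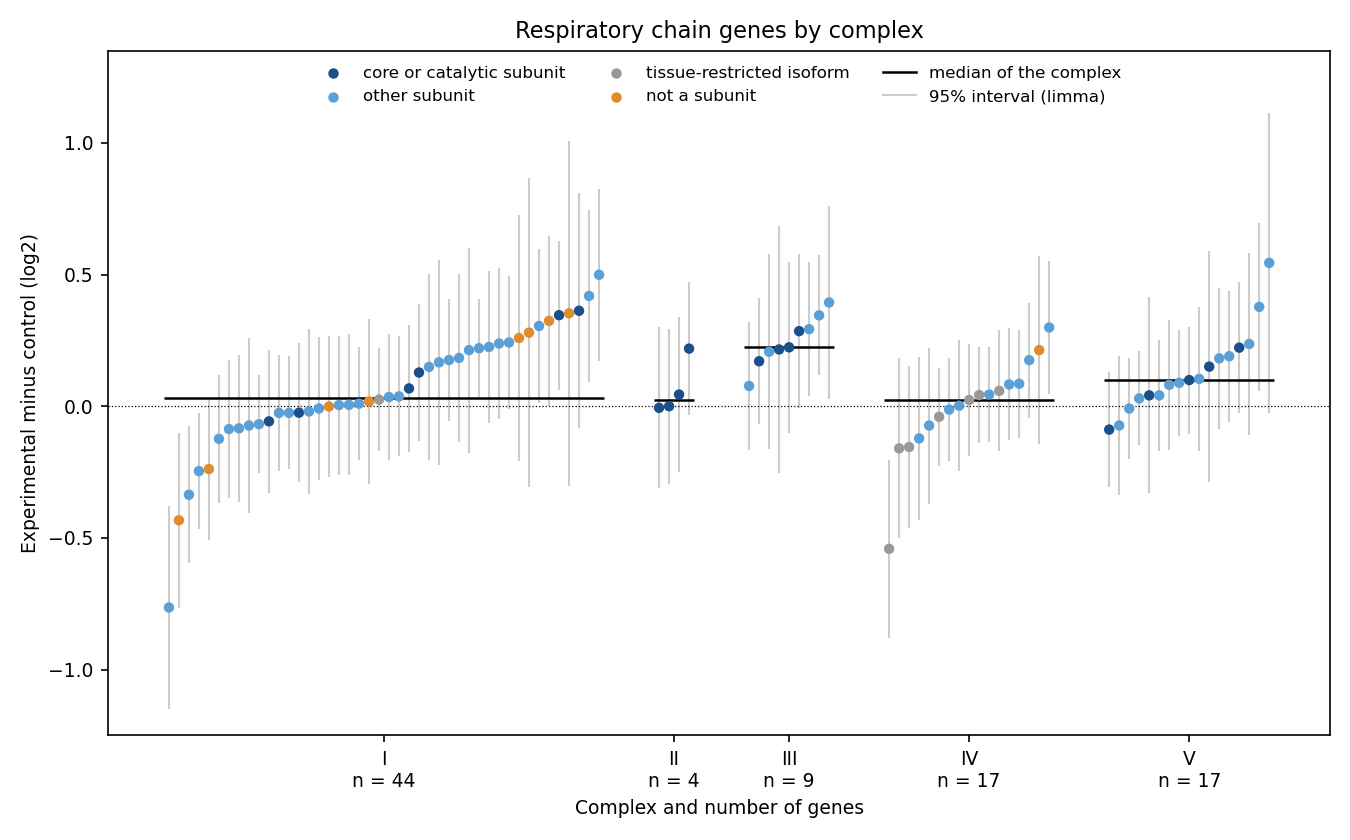
Difference between experimental and control samples (log2, vertical axis) for each of the 91 genes, sorted within complexes I to V; points are coloured by role, grey lines are 95% intervals from limma with 4 arrays per group, and black lines are medians of a complex. All 9 genes of complex III lie above 0, with a median of 0.22, while complexes I and IV spread to both sides with medians of 0.03 and 0.02.

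Arrays with the same replicate number shared deviations from their group means, as did arrays that shared only the style of their sample codes. The fit with the replicate number as a block called 2 members, Ndufs5 lower and Ndufa10 higher (6.18% of all genes were called in that fit). With the style of the sample codes as a block, Uqcr10 was called as well, higher, for 3 members in all against 7.05% of all genes. The calls also depended on single arrays. Without experimental replicate 2 there were 4, Ndufs5 lower with Ndufa10, Uqcr11 and Atp5g2 higher, while the count over all probe sets went from 1162 to 1744. Without experimental replicate 3 Ndufs5 alone was called, and without control replicate 1 Cox6a2 alone, lower. Each of the 5 remaining fits with 1 array left out called no member. Of all 45037 probe sets, 899 were called without experimental replicate 3 and 466 without control replicate 1. The 5 fits that called no member called 395 to 738 of them, so the counts over all probe sets changed with the array left out as well.

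The promoters of the 3 members called in a blocked fit, and of Atpif1, the inhibitor of the ATP synthase described below, are shown because nuclear respiratory genes are known as targets of the factors NRF1, GABP and YY1, and because E2F sites are the ones the genotype bears on. Each runs from 250 bases before to 50 after the annotated start (RefSeq, GRCm38.p6), 5′ to 3′, with matches to the searched motifs in capitals. Ndufs5 lies at chr4:123718137-123718436 (minus strand), Ndufa10 at chr1:92473709-92474008 (minus), Uqcr10 at chr11:4704295-4704594 (minus) and Atpif1 at chr4:132535365-132535664 (minus).
Ndufs5: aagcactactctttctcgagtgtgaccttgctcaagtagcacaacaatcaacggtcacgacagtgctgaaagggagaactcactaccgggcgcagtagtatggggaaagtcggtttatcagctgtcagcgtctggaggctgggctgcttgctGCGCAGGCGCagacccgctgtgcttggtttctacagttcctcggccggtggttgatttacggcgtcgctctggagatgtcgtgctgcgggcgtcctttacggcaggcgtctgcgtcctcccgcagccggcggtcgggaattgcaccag
Ndufa10: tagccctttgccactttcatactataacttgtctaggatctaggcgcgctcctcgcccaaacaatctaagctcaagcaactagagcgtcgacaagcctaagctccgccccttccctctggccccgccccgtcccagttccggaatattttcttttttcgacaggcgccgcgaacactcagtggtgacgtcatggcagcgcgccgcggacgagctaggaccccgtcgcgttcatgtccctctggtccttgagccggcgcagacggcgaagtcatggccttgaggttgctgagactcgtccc
Uqcr10: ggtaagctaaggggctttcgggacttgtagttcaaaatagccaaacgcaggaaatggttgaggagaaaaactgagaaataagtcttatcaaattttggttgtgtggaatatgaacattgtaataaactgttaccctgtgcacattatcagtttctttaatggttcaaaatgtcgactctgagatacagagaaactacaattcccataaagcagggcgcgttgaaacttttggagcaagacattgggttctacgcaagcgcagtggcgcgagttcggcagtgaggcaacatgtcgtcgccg
Atpif1: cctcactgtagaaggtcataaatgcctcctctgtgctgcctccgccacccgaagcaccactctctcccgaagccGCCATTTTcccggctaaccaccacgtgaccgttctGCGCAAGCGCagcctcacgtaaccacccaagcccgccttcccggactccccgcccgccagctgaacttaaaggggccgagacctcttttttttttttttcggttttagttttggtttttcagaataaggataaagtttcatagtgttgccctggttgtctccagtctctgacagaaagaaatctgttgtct
The motifs were the NRF1 site, CCGGAAG for GABP, AANATGGC for YY1, and TTTGGCGC, TTTCCCGC, TTTCGCGC or TTTGCCGC for E2F, on either strand. The NRF1 site is the run in capitals in Ndufs5, with any letter allowed at the 1 base where the NRF1 run of Atpif1 differs. Ndufs5 held 1 match to the NRF1 motif, and Atpif1 held 1 to the NRF1 motif and 1 to the YY1 motif, while the windows of Ndufa10 and Uqcr10 held none of these letters. Of 74 members with a promoter in the RefSeq table, 17 (23.0%) held the NRF1 motif, against 5.19% of all 27025 genes in it. The GABP motif was in 19 members (25.7%, against 9.93%), the YY1 motif in 17 (23.0%, against 6.96%) and an E2F motif in 2 (2.70%, against 2.60%). The median difference was 0.18 over members with the NRF1 motif and 0.04 over those without, and 0.03 with the GABP motif and 0.13 without. For the YY1 motif these medians were 0.00 and 0.10, and for an E2F motif, with 2 members, 0.15 and 0.06. A match is a run of letters and not a measured site.

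Complex I, the NADH dehydrogenase, had 27 of 44 genes above 0 and a median log2 difference of 0.03. Ndufs5, an accessory subunit on the side of the intermembrane space, had the largest difference of all members. It read 8.88, 8.85, 9.01 and 8.76 in control replicates 1 to 4 and 8.00, 7.62, 8.46 and 8.37 in the experimental ones. Every experimental array lay below every control, and replicate 2 was the lowest. The difference of -0.76 ± 0.17 (SE, n = 4 per group) had adjusted p = 0.0520 in limma, and 0.0290 with the replicate number and 0.0171 with the code style as a block; without 1 array it lay between 0.0382 and 0.135. The identity of this signal is uncertain: the platform annotation names Ndufs5 for the probe set but pairs it with the transcript of Ndufs5-ps, a transcribed pseudogene, the only such mismatch among the 36 members whose listed accession is a RefSeq transcript. Ndufs5 itself lies on chromosome 4, as does E2f2, with 197 measured genes between them. The 6 members on that chromosome had a median difference of 0.04, with 4 above 0 and 2 below. Sdhb, the member nearest to E2f2 with 67 measured genes between, differed by -0.01. The part of chromosomal position in these differences was not tested.

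Ndufa10, an accessory subunit, read 9.53, 9.35, 9.71 and 9.56 in controls and 9.96, 9.68, 10.32 and 10.20 in experimental samples. Only experimental replicate 2 reached down into the control range, just below control replicate 3. The difference was 0.50 ± 0.15 (SE, n = 4 per group; adjusted p = 0.114 in limma, 0.0333 with the replicate block, and 0.0326 to 0.282 without 1 array), and both of its probe sets had the same sign. Among the 6 measured core subunits, which carry flavin, iron-sulfur clusters or the quinone site, none passed. Ndufv1, which binds NADH and flavin, differed by 0.35 ± 0.13 (adjusted p = 0.196) and Ndufs3 by 0.36 ± 0.20 (adjusted p = 0.397). Ndufv2 (0.13), Ndufs8 (0.07), Ndufs1 (-0.02) and Ndufs7 (-0.06) had differences close to or below their standard errors of 0.11 to 0.12. Ndufs3 read 9.34 to 9.57 in controls and 9.23, 9.63, 10.24 and 10.08 in experimental replicates 2, 1, 3 and 4, so that 3 of its 4 experimental arrays lay above every control and the fourth below.

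Among the accessory subunits, 3 more had groups that did not overlap, named here after their values were seen. With Ndufs5 that made 4 of 29 accessory subunits of complex I, or 13.8%, near the 12.4% of all genes. Ndufa1 read 12.18 to 12.40 in controls and 11.85 to 12.13 in experimental samples (-0.25 ± 0.10 SE, adjusted p = 0.237), and Ndufa13, also known as the cell death regulator GRIM-19, read 11.32 to 11.64 and 10.93 to 11.29 (-0.34 ± 0.12, adjusted p = 0.172). Ndufa8 went the other way, 10.20 to 10.36 against 10.42 to 10.55 (0.22 ± 0.08, adjusted p = 0.212). Ndufb1 (0.42) and Ndufv3 (0.30) had an unadjusted p under 0.05 with overlapping groups. The Ndufa genes, without assembly factors, had 7 of 14 above 0 and the Ndufb genes 7 of 11, with medians of 0.00 and 0.01. Of the assembly factors, 5 of 8 lay above 0, with Ndufaf3 at -0.43 ± 0.15 (adjusted p = 0.168) and Ndufaf2 at 0.32 ± 0.14 (adjusted p = 0.292).

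Complex II, succinate dehydrogenase, is the enzyme shared with the citric acid cycle. Its flavoprotein gene Sdha read 10.36, 10.03, 10.25 and 10.13 in controls and 10.39, 10.26, 10.64 and 10.35 in experimental samples, a difference of 0.22 ± 0.11 (SE, n = 4 per group; adjusted p = 0.369 in limma) with overlapping groups. The probe sets of Sdha did not agree, since 2 of 4 had the opposite sign. Sdhb, the iron-sulfur subunit (-0.01 ± 0.14), and the membrane anchors Sdhc (-0.00 ± 0.13) and Sdhd (0.04 ± 0.13) had means within 0.05 of each other in both groups. Their spread was wider among experimental arrays: Sdhb had an SD of 0.06 in controls and 0.28 in experimental samples, and Sdhc 0.06 and 0.27.

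In complex III, the cytochrome bc1 complex, all 9 genes had a higher mean in the experimental samples, by 0.08 (Uqcrh) to 0.39 (Uqcr11), with a median of 0.22. None passed. Uqcr10, a small accessory subunit, read 10.11, 10.08, 10.30 and 10.13 in controls and 10.38, 10.37, 10.60 and 10.64 in experimental samples. All 4 experimental arrays lay above all 4 controls, and in both groups replicate 3 was above replicates 1 and 2. The difference was 0.34 ± 0.10 (SE, n = 4 per group; adjusted p = 0.117 in limma, 0.0461 with code style as a block, 0.0832 to 0.280 without 1 array). Uqcrb, which helps to form the quinone site, differed by 0.29 ± 0.11 (adjusted p = 0.226) and Uqcr11 by 0.39 ± 0.16 (adjusted p = 0.254; 0.0474 without experimental replicate 2). The electron carrying subunits were Cyc1, cytochrome c1, with 0.29 ± 0.13 (adjusted p = 0.304), and Uqcrfs1, the Rieske iron-sulfur protein, with 0.22 ± 0.15 (adjusted p = 0.483). The core proteins Uqcrc1 and Uqcrc2 differed by 0.22 ± 0.21 and 0.17 ± 0.11 (adjusted p = 0.659 and 0.466). The median of the complex moved with the arrays used: 0.10 within replicates 1 and 2, 0.41 within replicates 3 and 4, and 0.12 to 0.33 without 1 array.

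Complex IV, cytochrome c oxidase, had 10 of 17 genes above 0 and a median of 0.02. Its catalytic subunits are encoded in mitochondrial DNA, so the members here are the surrounding nuclear subunits and their isoforms. Cox5a read 12.24, 12.05, 11.85 and 12.10 in controls and 12.54, 12.39, 12.20 and 12.29 in experimental samples. Control replicate 1 overlapped the experimental range, and at this probe set replicate 1 was the highest and replicate 3 the lowest in both groups. Another of the 3 Cox5a probe sets, with a control mean of 12.04, had another order. There replicate 3 was the highest control, and replicates 3 and 4 were the highest experimental arrays. The remaining one shared the order of the brightest. At the brightest the difference was 0.30 ± 0.11 (SE, n = 4 per group, adjusted p = 0.213 in limma), and all 3 had the same sign. Of the isoforms typical of other tissues (Cox4i2, Cox6a2, Cox6b2, Cox7a1, Cox7b2, Cox8b and Cox8c), 3 of 7 lay above 0, with a median of -0.04. Cox7b2, Cox7a1, Cox4i2 and Cox8b were dim, with control means of 2.82, 3.05, 4.44 and 5.12, below the level of 6. Their signs enter this count and median but need not reflect the genes. Cox6a2, the isoform of heart and skeletal muscle, had the largest difference: it read 7.23, 7.73, 7.80 and 7.76 in controls and 7.19, 6.90, 6.95 and 7.31 in experimental samples (-0.54 ± 0.15, adjusted p = 0.100). Control replicate 1 stood apart from the other controls and within the experimental range, and without it the difference was -0.68 and passed (adjusted p = 0.0485; up to 0.247 over the fits without 1 array).

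**Figure D2:**
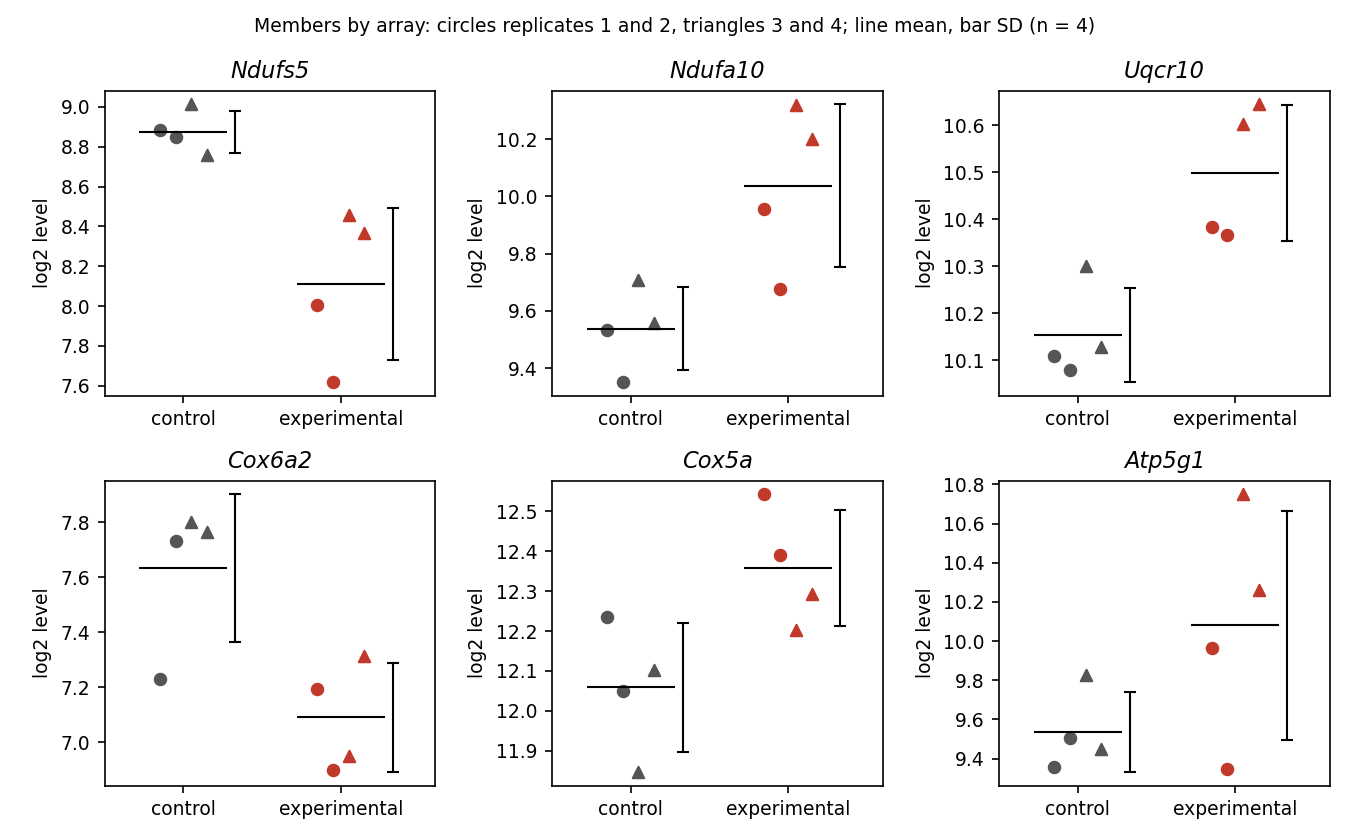
Level of 6 members on each array (log2, vertical axis) by group, with circles for replicates 1 and 2, triangles for replicates 3 and 4, a line at the group mean and a bar of 1 SD (n = 4). Ndufs5 and Uqcr10 have no overlap between groups, and in Ndufa10 and Atp5g1 the highest values are those of experimental replicates 3 and 4.

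Complex V, the ATP synthase, had 14 of 17 genes above 0 and a median of 0.10. In the catalytic F1 head, the alpha, beta and gamma subunit genes Atp5a1 (0.15 ± 0.20 SE), Atp5b (0.04 ± 0.17) and Atp5c1 (0.10 ± 0.09), with Atp5d (0.22 ± 0.11) and Atp5e (-0.09 ± 0.10), did not pass (n = 4 per group; adjusted p = 0.351 to 0.933 in limma). Atp5g1 and Atp5g2 had the largest differences of the complex. With Atp5g3 they encode subunit c, the proton carrying ring of the membrane part, as the same mature protein behind different import sequences. Atp5g1 read 9.36, 9.51, 9.83 and 9.45 in controls and 9.96, 9.35, 10.75 and 10.26 in experimental samples. Of these, 3 experimental arrays lay above all controls and replicate 2 just below them (0.54 ± 0.25, adjusted p = 0.316 in limma). The other of its 2 probe sets was dim, at 2.38 in controls and 2.37 in experimental samples. Its difference of -0.02 ± 0.13 (SE) was well within its error. Atp5g2 differed by 0.38 ± 0.14 (adjusted p = 0.210; 0.0494 without experimental replicate 2), and Atp5g3 by 0.19 ± 0.11 (adjusted p = 0.429). In all 3 genes experimental replicate 3 held the highest value of the 8 arrays.

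That pattern ran through the members. Experimental replicate 3 was the highest of the 8 arrays for 46 of 91 genes, and experimental replicate 2 and control replicate 4 were the lowest for 27 each. The mean over all members was 9.69 to 9.83 in the 4 control arrays, and 9.77, 9.67, 9.98 and 9.92 in experimental replicates 1 to 4, so the groups overlapped. The SD was larger among experimental than among control arrays for 70 members (76.9%, against 66.3% of all genes). The codes of the samples are written as digit and letter for replicates 1 and 2 of both groups and the other way round for 3 and 4, and the labels give no meaning for this. Within replicates 1 and 2 the members had a median difference of -0.02 with 37 of 91 above 0, and within replicates 3 and 4 it was 0.19 with 71 above 0, while all genes had medians of 0.01 and -0.00. The 9 monocyte and macrophage markers divided along the same replicates, with a median of -0.82 and 0 of 9 above 0 within replicates 1 and 2, and 0.14 and 6 of 9 above 0 within replicates 3 and 4. Their array means were 10.31, 10.59, 10.44 and 10.22 in control replicates 1 to 4 and 9.89, 9.44, 10.46 and 10.49 in the experimental ones, so that experimental replicate 2 was the lowest array for these markers as for the mean of the members. For 6 of the 9 the interaction with code style had an unadjusted p under 0.05 in limma and for none an adjusted one. The 11 eosinophil and mast cell markers divided the other way, with a median of 0.06 within replicates 1 and 2 and -0.28 within replicates 3 and 4. For 5 of these 11 the interaction had an unadjusted p under 0.05 in limma. In the remaining marker lists at most 2 genes did. The mitochondrial lists described below held such genes too. They were 20 of 76 mitochondrial ribosomal protein genes, 10 of 37 other assembly factors and 6 of 31 protein import genes. The citric acid cycle list had 3 of 16, and the lists of carriers, electron carriers and biogenesis had 2 of 18, 2 of 20 and 1 of 21. None passed after adjustment. The part of any marker list in the division of the members was not tested. Both differences were positive for 34 members and negative for 17, 37 were negative in the first and positive in the second, and 3 the reverse. The test of the difference between these differences, an interaction term added after seeing the data, called no member after adjustment in limma, and 9 members (9.89%) had an unadjusted p under 0.05 against 8.06% of all genes. So a difference in response between the replicates was not shown for single genes.

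**Figure D3:**
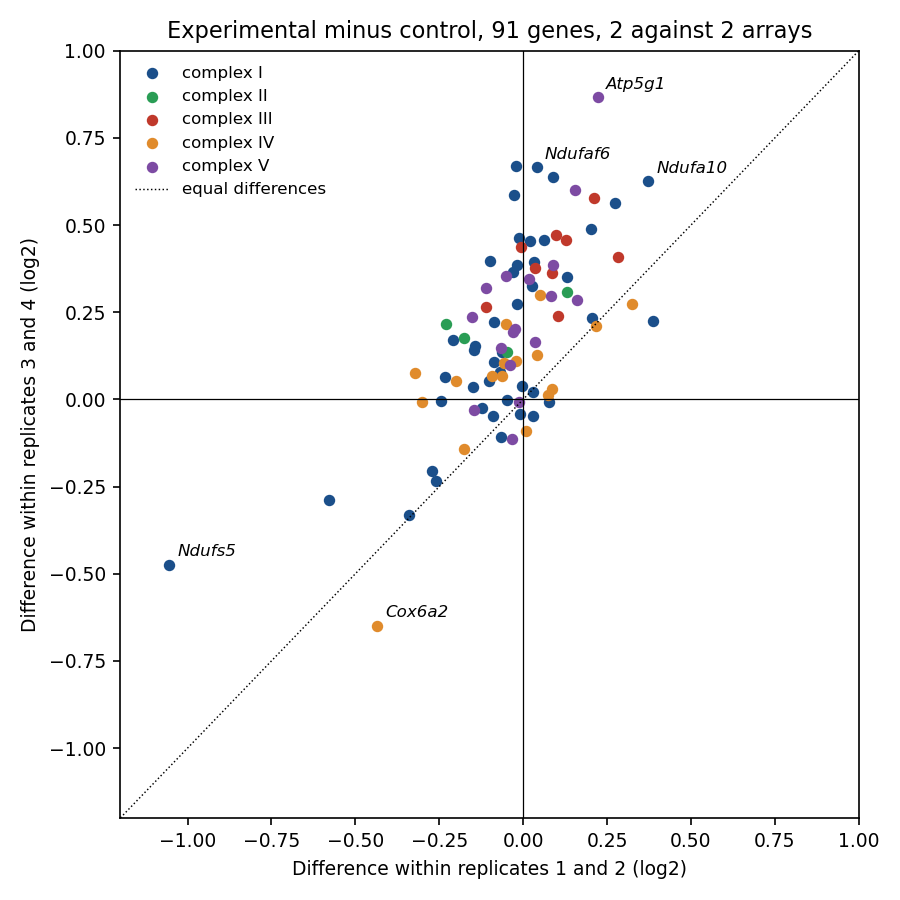
Difference between experimental and control means (log2) within replicates 1 and 2 (horizontal axis) and within replicates 3 and 4 (vertical axis) for the 91 genes, coloured by complex, each from 2 against 2 arrays; the dotted line marks equal differences. Most points lie above the line, while Ndufs5 is negative and Ndufa10 positive in both.

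Genes around the chain were read from lists of other mitochondrial functions. In 3 of them a single gene passed, out of 18, 20 and 21, which is about the share of 3.47% called among all genes, so the counts set none of these lists apart. In the list of carriers, uncoupling and oxidant defence, 1 of 18 rose: Atpif1, the inhibitor that stops the ATP synthase from running backwards. It read 9.75, 9.62, 9.61 and 9.64 in controls and 10.52, 10.29, 10.11 and 10.26 in experimental samples, with a wide gap between the groups. The difference was 0.64 ± 0.10 (SE, n = 4 per group; adjusted p = 0.0152 in limma), and without control replicate 2 or 4 it missed the threshold (adjusted p = 0.0541 and 0.0530). Atpif1 lies on chromosome 4 with 77 measured genes between it and E2f2, while Sdhb, with 67 between, differed by -0.01. The list had 14 genes above 0 and a median of 0.22.

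Of 20 genes of electron carriers and coenzyme Q synthesis, 1 rose, Pdss2, a subunit of the enzyme that makes the side chain of coenzyme Q. Pdss2 read 5.97, 5.84, 6.30 and 6.28 in controls and 6.61, 7.13, 6.63 and 7.11 in experimental samples, without overlap (0.77 ± 0.16 SE, adjusted p = 0.0389 in limma; passed only without experimental replicate 1 or 3 among the fits that leave out 1 array, 0.0439 to 0.120). The list had 15 genes above 0 and a median of 0.16. Among 21 genes of mitochondrial biogenesis and maintenance of mitochondrial DNA, 1 fell, Gabpb1, the partner of the DNA-binding subunit Gabpa in the factor GABP, and 13 lay below 0 (median -0.14). Gabpb1 read 7.50, 7.61, 7.80 and 7.82 in controls and 6.38, 6.93, 7.08 and 7.05 in experimental samples, again without overlap (-0.82 ± 0.16, adjusted p = 0.0312; passed only without experimental replicate 1, 2 or 3 among those fits, 0.0322 to 0.0940). Gabpa itself, named after its value was seen, differed by -0.15 ± 0.10 (adjusted p = 0.485).

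No gene passed in the remaining lists. The pyruvate dehydrogenase and citric acid cycle list had 15 of 16 genes above 0 and a median of 0.22, with citrate synthase, Cs, at 10.24 to 10.39 in controls and 10.56 to 10.75 in experimental samples (0.35 ± 0.09 SE, n = 4 per group; adjusted p = 0.0697 in limma) and Suclg1 at 0.32 (adjusted p = 0.207). The mitochondrial ribosomal protein list had 61 of 76 above 0 and a median of 0.12 (-0.10 within replicates 1 and 2 and 0.29 within replicates 3 and 4), led by Mrpl19 (0.50, adjusted p = 0.209, and 0.0357 with the replicate block) and Mrps7 (0.38, adjusted p = 0.236). Protein import genes had 23 of 31 above 0 and a median of 0.16, with Tomm70a (0.31, adjusted p = 0.137) and Timm17a (0.51, adjusted p = 0.153). Other assembly factors had 20 of 37 above 0 and a median of 0.02, with Coa6 at -0.43 (adjusted p = 0.0818) and Cox20 at -0.33 (adjusted p = 0.0989). No subunit encoded in mitochondrial DNA had a probe set with 1 symbol here.

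**Figure D4:**
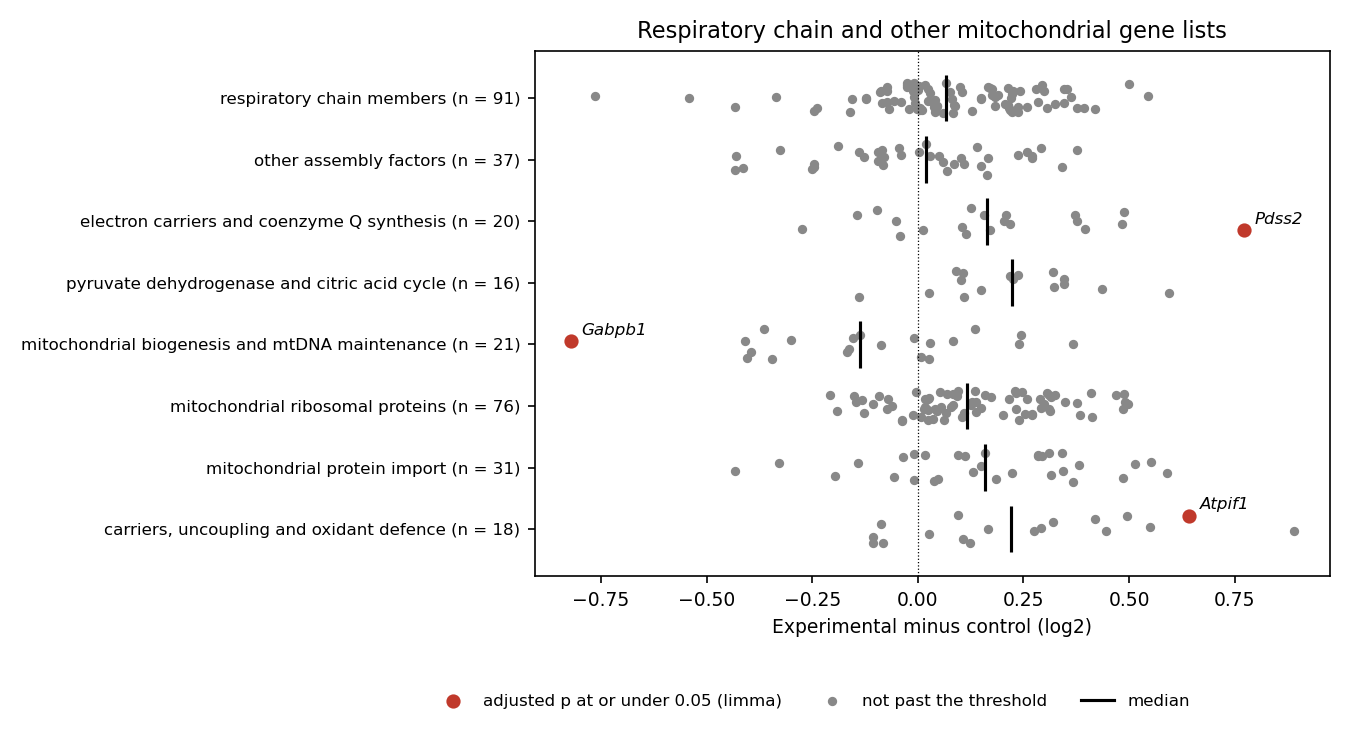
Difference between experimental and control samples (log2, horizontal axis) for the 91 respiratory chain genes and 7 lists of other mitochondrial genes; red points passed adjusted p 0.05 in limma, grey points did not, and black lines are medians. The 3 genes that passed are Pdss2 and Atpif1, higher, and Gabpb1, lower.

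Bulk RNA of sorted cells does not tell fewer cells of a type from less RNA per cell. The 10 neutrophil markers had array means of 13.48 to 13.58 in controls and 13.19 to 13.45 in experimental samples, near the highest value of each array (14.36 to 14.54), and 1 of them, Csf3r, fell (-0.65 ± 0.09 SE, n = 4 per group; adjusted p = 0.00943 in limma). Markers of other cells moved with the groups. Of 13 B cell markers 7 fell (array means of 7.44 to 8.21 against 6.22 to 6.95), among them Blk, Cd79a and Spib. Of 8 megakaryocyte markers 4 fell (6.12 to 6.69 against 5.55 to 5.59), with Pf4, Ppbp and Vwf. Of 11 dendritic cell markers 3 fell, Cd209a, Siglech and Cd74 (7.34 to 7.73 against 6.76 to 7.02). Of 11 eosinophil and mast cell markers 2 rose, Epx and Siglecf, while 7 of the 11 lay below 0 and the median was -0.17 (array means of 6.69 to 6.91 against 6.60 to 7.08). None passed of 10 erythroid markers (7.22 to 7.70 against 7.19 to 8.67), led by Alas2 (1.10) and Rhag (0.49), of 11 T and NK cell markers (6.50 to 7.36 against 6.65 to 7.41), led by Nkg7 (1.04) and Cd3g (1.33), or of 9 monocyte and macrophage markers (10.22 to 10.59 against 9.44 to 10.49), led by Cx3cr1 (-1.23) and Csf1r (-0.64). Of the 11 T and NK cell markers 6 lay above 0 and 5 below, with a median of 0.06. The part of these marker lists in the differences of Atpif1, Pdss2, Gabpb1 and the respiratory chain genes was not tested. Of the 3' over 5' log2 ratios of control probe sets, which are read as signs of RNA integrity, that of beta-actin was higher in each experimental array (0.34 to 0.54) than in each control (0.27 to 0.32). That of Gapdh overlapped between the groups (-0.16 to 0.03 against -0.14 to -0.09). The part of either in the results was not tested.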

How the data were processed

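Expression was read from the table of log2 values per probe set that the authors deposited, 8 Affymetrix arrays of biotin-labelled cRNA. The submitters' processing notes name RMA, without a version; no source used here says if the 8 were processed in 1 run. The array medians of 5.01 to 5.04 lay close together. Of 45101 probe sets, 64 Affymetrix controls were left out; of the other 45037, the platform annotation gave 34945 a single symbol, 932 more than 1, and 9160 no symbol. All 91 members matched a RefSeq gene of GRCm38.p6 by identifier.

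Differences are experimental minus control, fitted with limma 3.58.1 in R 4.3.3 (lmFit, eBayes, group only) and adjusted by Benjamini-Hochberg over all 45037 probe sets; the fit was tested on simulated data. Errors of differences are moderated SEs, errors of levels SDs. Precision is limited by there being 8 arrays. Same-numbered arrays correlated at 0.20 to 0.26 in their deviations from the group means. The numbers, which come from the titles, entered only the fit with the replicate number as a block, and the main fit left them out. Same-numbered arrays also share a code style, so these correlations do not tell number from style. Arrays sharing a code style but no number correlated at 0.14 to 0.26, and those of the other style at -0.27 to -0.13.

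The members and lists were chosen with earlier results of these data known. Named in full are the core subunits, the 2 members of smallest p in a complex without a call, and up to 3 called genes of a list or, with none, the 2 of smallest p. Other members named were chosen after their values were seen: those with an unadjusted p under 0.05, those whose groups do not overlap, Atp5g3, Uqcrh and Ndufaf6. Alternatives were other scalings, filters, variance models, blocks and probe set choices, each code style alone, and leaving out each array.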

Additional observations from a re-analysis of the deposited data

Results flagged for a closer look

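In 8 of 128 groups of 4 arrays of named genes, 1 array lay far from the other 3 for their spread (Dixon's criterion at 95%), where chance marks about 1 in 20 groups, or 6.4 of 128. Atp5b read 11.78 in control replicate 3 against 11.53 to 11.56 in the other controls, and Ndufa8 read 10.36 there against 10.20 to 10.22. Cox6a2 read 7.23 in control replicate 1 against 7.73 to 7.80. Ndufs1 read 9.38 in experimental replicate 3 against 8.95 to 9.01, and Ndufs7 read 9.79 in experimental replicate 1 against 9.44 to 9.50. Among markers of other cells, control replicate 4 was low for Cd209a (7.46, others 8.82 to 8.94) and Cd74 (10.67, others 11.28 to 11.33), and experimental replicate 2 was low for Spib (4.66, others 5.94 to 6.08).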

How the results depend on the processing

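The count of members past the threshold, 0 in the limma fit with group only (16 at an unadjusted p under 0.05), was 1, Ndufs5, after quantile normalization, among probe sets with a mean of at least 6, among those above the median level, and with a gene's probe sets averaged. It was 2 with the replicate block, 3 with the code style block, and 0 to 4 without 1 array. It stayed 0 with median centring, trended and robust variance, the most variable probe set, and within either code style. The count over all probe sets, 1162, was 2277 with the replicate block, 2582 with the code style block, 130 within replicates 1 and 2, 418 within replicates 3 and 4, and 395 to 1744 without 1 array. Beyond Ndufs5 and Ndufa10, the replicate block also called Idh3a, Mrpl19 and Txn2 in the mitochondrial lists, and Ebf1, Itga2b, Alas2, Nkg7 (adjusted p = 0.0343), H2-Aa and H2-Ab1 among the markers; every listed gene called without it stayed called. Of the markers named, Cd74, Siglecf, Siglech and Vwf lost their call without some single array (adjusted p up to 0.112, 0.0959, 0.0501 and 0.0541).

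The median over all members, 0.07, was 0.19 within replicates 3 and 4, where complexes I, II, III and V had 0.15, 0.20, 0.41 and 0.24; complex IV had -0.051 within replicates 1 and 2. These moves exceeded the SD between arrays, and the other settings moved the medians by less. Over all 91 members, the sign differed between replicates 1 and 2 and replicates 3 and 4 for 40. The members listed here are only the core subunits and those named for a small p or for groups without overlap. Among them small differences changed sign. Within replicates 1 and 2 these were Atp5a1 (-0.053), Atp5b (-0.15), Ndufaf2 (-0.022), Ndufs8 (-0.087), Ndufv2 (-0.019), Sdhd (-0.048) and Uqcrc1 (-0.0069), and within replicates 3 and 4 Ndufs7 (0.035), Sdhb (0.22) and Sdhc (0.17). With the most variable probe set they were Atp5c1 (-0.27), Sdha (-0.30), Sdhc (0.092) and Sdhd (-0.028), and with the mean of probe sets Atp5c1 (-0.087) and Sdhc (0.046). Median centring turned Sdhb (0.0095) and Sdhc (0.016), and quantile normalization Sdhc (0.0068). Without 1 array Atp5a1 ranged from -0.019 to 0.30, Atp5b from -0.11 to 0.18, Ndufs1 from -0.12 to 0.030, Sdhb from -0.10 to 0.11, Sdhc from -0.11 to 0.078 and Sdhd from -0.040 to 0.14. The cause was not tested.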
